A study of Mus musculus with 5 samples.

Results

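Imprinted genes are described here by the contacts of their promoters in 2 cell types of the fetal mouse gonad. A list of 56 known imprinted genes and cluster neighbours, in 14 clusters on chromosomes 1, 2, 6, 7 and 9, was taken by name. Of these, 37 had a promoter bait with a listed contact on its own chromosome in at least 1 of 2 deposited tables, out of 9038 genes with such a bait in all. Capture Hi-C, the assay used, joins DNA ends that lie near each other in fixed nuclei and enriches the joined fragments for promoters (the baits), here after digestion with DpnII. Sertoli cells, the supporting cells of the testis, were sorted from E13.5 gonads by GFP of the genotype Sox9IRES-GFP and gave 3 libraries. Pre-granulosa cells, their counterpart in the ovary, were sorted at E13.5 by mCherry of the genotype Enh8-mCherry and gave 2 libraries. About 100000 sorted cells went into each library. The reporters define both populations, and each differs in transgene as well as in sex and cell type. The tables hold scores and no RNA, so the labelled cell types could not be checked against their marker genes.

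An imprinted gene is transcribed mainly from the copy inherited from 1 parent. The choice is set by germline differentially methylated regions (DMRs), where DNA methylation laid down in egg or sperm survives in the embryo's body cells, helped by the zinc finger protein ZFP57. DMRs act over whole clusters, as promoters of noncoding RNAs such as Kcnq1ot1 or as methylation-sensitive binding sites of the insulator protein CTCF, as at H19 and Igf2. Supporting cells are somatic and keep parental imprints, while germ cells of the same gonads erase them. The 2 parental copies were not told apart in these tables, so each score covers both.

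Each score is the CHiCAGO score that the authors deposited for a bait and another end, here a bin of about 5 kb. It grows as the ligation signal exceeds an expected background, which depends on distance among other things. A score of at least 5 is named a call below. Both tables list only pairs with a score of at least 5 in at least 1 cell type, so a listed pair had to pass in 1 of them. In the original table a bait is a short fragment (median 800.5 bp for these genes), and in the extended table it is a bin of about 5 kb (median 5268 bp). All libraries of a cell type stand behind 1 column, so no replicate spread can be given, no test was run, and differences between the cell types are differences between 2 pooled scores. Distances are between midpoints.

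Some promoters of these clusters are shown by the bases just upstream of their starts, from RefSeq on GRCm38 (the mm10 assembly), with each CpG, the target of methylation, in capitals. The first 7 are promoters known to lie in germline DMRs, and the last 3 belong to the genes that had, in the table of original baits, the strongest contact called in both cell types (Blcap), the largest score difference towards Sertoli cells (Asb4) and the largest towards pre-granulosa cells (Herc3), both on the asinh scale (a log-like scale that takes 0). For Peg3 and Usp29, which are transcribed away from each other, the stretch between the 2 genes is given. The Blcap stretch lies in the bait Blcap-202, whereas the contact meant here came from Blcap-205, whose fragment holds no RefSeq start. The start of Kcnq1ot1 lies in no listed bait.
Mcts2, plus strand, chr2:152686998-152687147: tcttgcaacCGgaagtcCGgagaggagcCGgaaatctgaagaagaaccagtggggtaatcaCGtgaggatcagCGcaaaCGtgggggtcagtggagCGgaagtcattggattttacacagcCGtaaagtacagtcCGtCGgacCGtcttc
Nnat, plus strand, chr2:157559928-157560077: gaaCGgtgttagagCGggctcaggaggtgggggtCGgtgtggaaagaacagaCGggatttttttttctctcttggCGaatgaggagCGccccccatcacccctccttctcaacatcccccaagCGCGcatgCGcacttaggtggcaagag
Mest, plus strand, chr6:30737900-30738049: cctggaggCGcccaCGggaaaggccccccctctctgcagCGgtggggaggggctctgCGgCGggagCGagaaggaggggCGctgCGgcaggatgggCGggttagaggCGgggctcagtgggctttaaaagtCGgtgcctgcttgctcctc
Nap1l5, minus strand, chr6:58907127-58907276: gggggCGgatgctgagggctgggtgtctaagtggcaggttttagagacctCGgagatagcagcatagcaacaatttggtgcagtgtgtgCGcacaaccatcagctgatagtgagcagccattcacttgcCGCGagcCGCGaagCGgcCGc
Peg3-Usp29, plus strand, chr7:6730463-6730558: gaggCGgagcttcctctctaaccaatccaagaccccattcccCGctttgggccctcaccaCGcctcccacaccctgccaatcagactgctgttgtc
Snrpn, minus strand, chr7:60005200-60005349: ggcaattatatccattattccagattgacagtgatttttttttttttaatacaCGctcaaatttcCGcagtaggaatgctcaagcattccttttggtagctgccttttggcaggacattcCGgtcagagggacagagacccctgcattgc
Kcnq1ot1, minus strand, chr7:143296548-143296697: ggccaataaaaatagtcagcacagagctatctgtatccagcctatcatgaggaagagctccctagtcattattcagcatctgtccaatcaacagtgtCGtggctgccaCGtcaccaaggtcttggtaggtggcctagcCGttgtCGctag
Blcap, minus strand, chr2:157566362-157566511: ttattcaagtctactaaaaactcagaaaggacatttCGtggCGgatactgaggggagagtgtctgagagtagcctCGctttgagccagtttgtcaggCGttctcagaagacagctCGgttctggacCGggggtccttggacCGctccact
Asb4, plus strand, chr6:5383236-5383385: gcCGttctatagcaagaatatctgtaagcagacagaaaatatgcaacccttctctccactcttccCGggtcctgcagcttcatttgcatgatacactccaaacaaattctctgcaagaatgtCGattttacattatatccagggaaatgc
Herc3, plus strand, chr6:58833550-58833699: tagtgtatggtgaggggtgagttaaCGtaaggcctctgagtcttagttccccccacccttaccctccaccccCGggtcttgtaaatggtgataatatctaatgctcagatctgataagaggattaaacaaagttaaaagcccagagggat

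CpG content set these promoters apart from each other. The 150 bases before Mcts2 and before Mest held 11 CpGs each, those before Nnat and Nap1l5 held 9 each, and those before Snrpn and Asb4 held 3 each. RefSeq promoter windows of 300 bases were found for 45 of the 56 genes, 70 windows in all, and their median ratio of observed to expected CpG was 0.603 against 0.384 over all 32851 windows. The hexamer TGCCGC (or GCGGCA on the other strand), which ZFP57 binds when methylated, stood in 18 of the 70 windows (25.7%) and in 11.6% of all windows. Among the 7 germline DMR promoters it was found for 5 (Mest, Nap1l5, Nnat, Mcts2 and Snrpn), and in the stretches above it starts at base 84 of Mest and base 127 of Nap1l5. A core of the CTCF motif stood in 2 of the 70 windows (2.86%, against 2.43% of all) and a core of the YY1 motif, GCCATNTT, in 3 (4.29%, against 6.05%). Both strands were searched, the motifs may overlap, and a match is only a match of letters. The ZFP57 hexamer itself holds a CpG, and the 70 windows are richer in CpG than all windows. No share at like CpG content was computed. Snrpn and Snurf have the same window, which was counted for each, and the Mest windows with a match overlap each other.

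Across the clusters more contacts were called in Sertoli than in pre-granulosa cells, as in the tables as a whole. With original baits, 30 of the genes had 48 baits and 176 listed contacts. Of these, 135 were called in Sertoli cells (79.5% of all listed contacts were) and 85 in pre-granulosa cells (42.0% of all). Both cell types shared 44 calls (21.5% of all listed contacts), 91 were called in Sertoli cells only (58.0% of all) and 41 in pre-granulosa cells only (20.5% of all). Sertoli calls were 1.59 times as many as pre-granulosa calls for the imprinted genes and 1.89 times for all baits. When the same number of calls was taken from each cell type over the whole table, the imprinted genes had 68 calls in Sertoli and 85 in pre-granulosa cells.

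Contacts called in only 1 cell type ranged from just under the threshold to 0 in the other, as over all baits. Of the 91 Sertoli-only calls, 32 reached 3 in pre-granulosa cells (5779 of 17061 over all baits), 25 were under 1 (3938 over all baits) and 9 of those were listed at 0 (4.16% of all listed contacts were). Of the 41 pre-granulosa-only calls, 16 reached 3 in Sertoli cells (2849 of 6033 over all baits), 6 were under 1 (626 over all baits) and none was listed at 0 (0.282% of all). Among Sertoli calls of imprinted genes 32.6% were shared (95% Wilson interval 25.3 to 40.9%), beside 27.1% over all baits. Among pre-granulosa calls it was 51.8% (41.3 to 62.1%), beside 51.2%. These intervals cover counting error only. Contacts of 1 bait, or of baits of 1 cluster, share fragments and are not independent.

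**Figure D1:**
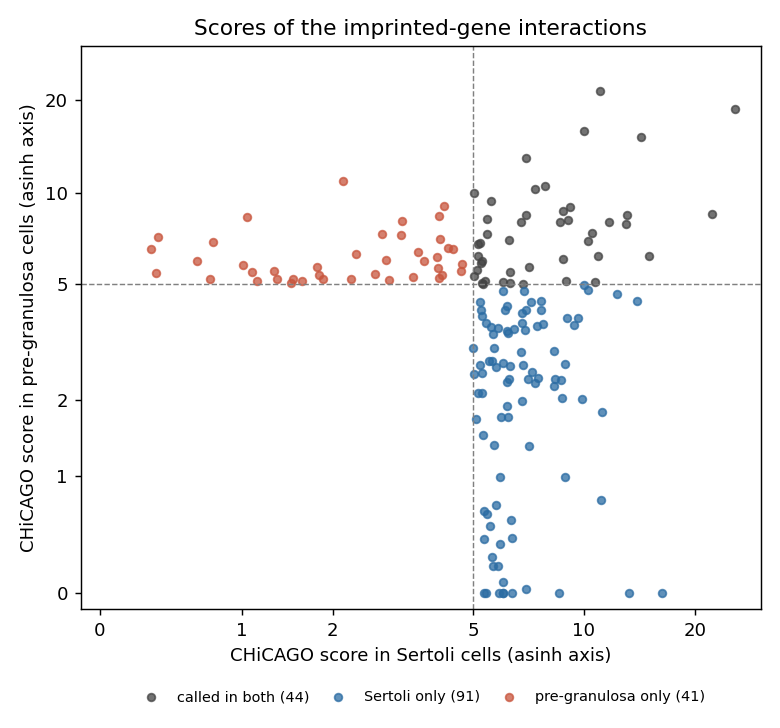
Each point is 1 of the 176 listed contacts of imprinted-gene baits in the original table, with its CHiCAGO score in Sertoli cells on the horizontal axis and in pre-granulosa cells on the vertical axis (both asinh axes), and dashed lines at the call threshold of 5. The empty lower left corner comes from the listing rule, and 9 points lie on the pre-granulosa 0 line while none lies on the Sertoli 0 line.

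The surplus of Sertoli calls was spread over most clusters. Sertoli calls outnumbered pre-granulosa calls in 11 of the 14 clusters, pre-granulosa calls led in the Snrpn cluster (6 against 2), and the Zdbf2 and Nap1l5 clusters had 1 of each. Of the 48 baits, 27 had more Sertoli calls (63.8% of all baits), 14 more pre-granulosa calls (23.6%) and 7 equal numbers (12.6%). In the extended table, where 35 genes had 57 baits and 286 listed contacts, 212 were called in Sertoli (78.0% of all listed) and 177 in pre-granulosa cells (56.3%), and 103 in both (34.3%). By cell type alone, 109 were called in Sertoli cells only (43.7% of all) and 74 in pre-granulosa cells only (22.0%), while Sertoli scores of 0 were listed for 10 (0.920%) and pre-granulosa scores of 0 for 6 (2.36%). Of these baits 26 had more Sertoli calls (52.4% of all baits), 17 more pre-granulosa calls (27.8%) and 14 equal numbers (19.8%). There Sertoli calls led in 8 of 13 clusters and pre-granulosa calls in 4, which were Nnat (22 against 18), Nap1l5 (6 against 4), Snrpn (4 against 3) and Igf2 (33 against 29). With equal numbers of calls per cell type in the original table, Sertoli calls led in 5 clusters, pre-granulosa calls in 6, and 3 were level. Of the 135 original contacts with an overlapping bin listed for the extended bait, 114 kept the order of the cell types.

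**Figure D2:**
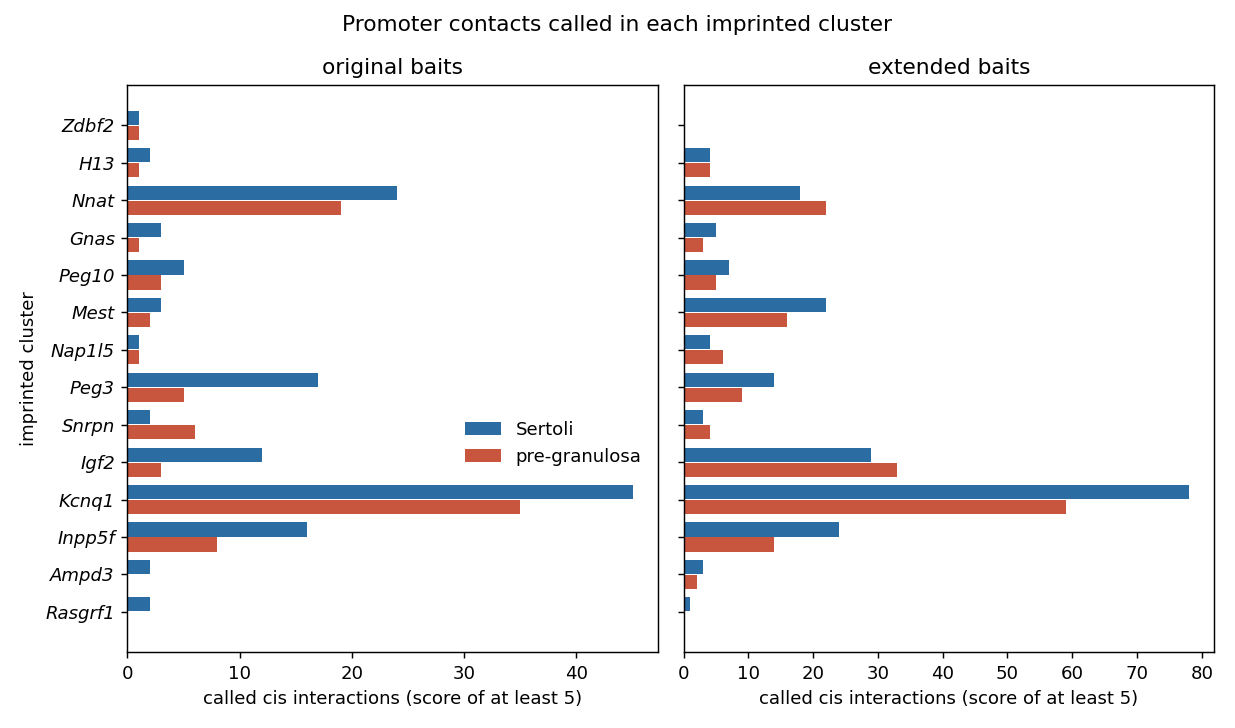
Bars give the number of called contacts (score of at least 5) of each imprinted cluster in Sertoli and in pre-granulosa cells, for original baits on the left and extended baits on the right; the horizontal axes differ in scale. The Kcnq1 cluster held the most calls in both tables (45 and 35 with original baits, 78 and 59 with extended baits), and the Igf2 and Nnat clusters changed which cell type led.

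Resident genes inside a host gene form 3 of the clusters: Nnat in Blcap, Mcts2 in H13 and Nap1l5 in Herc3. Nnat encodes neuronatin, a small membrane protein of the endoplasmic reticulum, and is expressed from the paternal copy. Its host Blcap encodes a small membrane protein as well.

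A Blcap promoter had the highest score of any imprinted original bait in each cell type, and the contacts of Blcap and Nnat lay nearly all on 1 side. Of the 31 listed contacts of the Nnat cluster, 30 lay at lower coordinates, towards Src, Ghrh and Rpn2. The Blcap-205 bait (chr2:157571251-157571897) had 19 of them. Its highest Sertoli score was 25.6, with 18.7 in pre-granulosa cells, for a bin in the tyrosine kinase gene Src at 110.9 kb (chr2:157458103-157463250). Its highest pre-granulosa score was 21.5, with 11.1 in Sertoli cells, for a bin in Ghrh, the gene of growth hormone releasing hormone, at 230.7 kb (chr2:157338130-157343621). The bin beside it scored 10.001 in Sertoli and 15.8 in pre-granulosa cells. Another bin over Ghrh (chr2:157330006-157335034) scored 15.03 and 6.18. Thus both cell types called the same 2 regions, and the bins over Ghrh did not share 1 order of the cell types.

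Nnat itself shared the Src bins with its host but at other scores. The Nnat-205 bait (chr2:157559639-157560519) had 5 Sertoli and 7 pre-granulosa calls. It scored 5.62 in Sertoli and 9.40 in pre-granulosa cells with the Src bin named above. With the next bin (chr2:157463251-157468285) it scored 2.15 and 10.9, while Blcap-205 scored 5.29 and 3.93 with that bin. The Ghrh bin scored 1.78 and 5.71 with Nnat-205. The second Blcap bait, Blcap-202, whose fragment holds the RefSeq start of Blcap, had 3 Sertoli calls and 1 pre-granulosa call, with 10.7 and 5.09 at the Src bin. All 3 original baits therefore contacted 1 Src bin in both cell types, and Ghrh-202 and Rpn2-202 baits were listed with it too, at 8.81 and 3.22 and at 6.08 and 0.

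Extended baits gave other scores at the Src and Ghrh bins, and some pairs could be read from both ends. Blcap-205 and the Src-203 promoter scored 11.2 in Sertoli and 9.004 in pre-granulosa cells from the Blcap side, and 18.7 and 15.2 from the Src side. Blcap-202 scored 2.53 and 11.4 with that promoter, and 3.57 and 12.9 in reverse, and Nnat-205 was not listed with it. With the extended bin that overlaps the Src bin above most (chr2:157460302-157465419), Nnat-205 scored 3.51 and 10.2 and Blcap-202 scored 7.45 and 1.04, so these baits were called there in opposite cell types. Blcap-205 and Ghrh-202 scored 14.8 and 13.9, and 22.6 and 22.1 in reverse, so the Sertoli score was slightly higher at this Ghrh bin. A bin beside it (chr2:157341383-157346645) scored 16.4 and 28.9 with Blcap-205. With the Ghrh-202 bin Nnat-205 scored 6.12 and 4.40, and 9.39 and 6.87 in reverse, which turned the order of its original Ghrh contact. Nnat-205 and Blcap-205 scored 8.39 and 6.53 with each other, and 6.70 and 4.41 in reverse. Rpn2-202, a promoter of an oligosaccharyltransferase subunit, was listed at 0 in Sertoli cells for Nnat-205, Blcap-202 and Blcap-205, which scored 12.7, 7.95 and 16.8 with it in pre-granulosa cells. All 6 contacts listed at that bin, from any bait, stood at 0 in Sertoli cells, and in reverse the Rpn2-202 bait scored 14.2 and 13.3 with Blcap-205 and 1.45 and 8.05 with Nnat-205. The listing at 0 was therefore not particular to the imprinted promoters.

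Mcts2, a retrogene of a translation factor, and its host H13, the gene of signal peptide peptidase, both reached the promoter of Bcl2l1, an inhibitor of apoptosis. With extended baits Mcts2-201 scored 16.9 in Sertoli and 26.4 in pre-granulosa cells at 144.0 kb. H13-204 scored 12.1 and 22.4 with the same bin at 159.4 kb. In reverse the Bcl2l1 bait scored 11.9 and 21.5 with Mcts2 and 6.12 and 14.7 with H13. All 4 scores were higher in pre-granulosa cells and all were calls in both. The original baits had only 3 listed contacts in this cluster, among them Mcts2-201 with a bin in H13 at 3.72 kb (8.89 and 2.69) and H13-204 at 54.0 kb (3.67 and 5.97). In the extended table Mcts2-201 contacted the promoter of the defensin gene Defb45 in Sertoli cells only (7.48 and 0.0563).

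Nap1l5, a nucleosome assembly factor gene, and its host Herc3, a ubiquitin ligase gene, had few contacts, most of them inside Herc3. The original Herc3-202 bait scored 0.367 in Sertoli and 7.14 in pre-granulosa cells with an intragenic bin at 23.9 kb, which was the largest difference of asinh scores towards pre-granulosa cells among original baits of all clusters. The extended bin of Herc3-202 was not listed with it. Its 1 listed contact, with Herc3-211 at 54.9 kb, was called in both cell types (5.80 and 5.01). The Herc3-211 bait scored 5.84 and 3.58 with another bin of the gene at 8.45 kb. With extended baits Nap1l5-201 and Herc3-211 scored 6.30 and 7.91, and 4.26 and 5.56 in reverse, at 21.6 kb. Herc3-211 also contacted the Tigd2 promoter at 323.3 kb in pre-granulosa cells only (0.303 and 6.32, and 0 and 5.77 in reverse).

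The Peg3 cluster holds the zinc finger genes Peg3 and Zim1 and the deubiquitinase gene Usp29. Peg3 is expressed from the paternal copy and shares its DMR promoter with Usp29, and Zim1 is expressed from the maternal copy. Zim1-201 (chr7:6695929-6696848) had 15 Sertoli and 4 pre-granulosa calls among 16 listed contacts, and 13 of the 16 lay on the Peg3 and Usp29 side. The 4 touching bins over Peg3 scored 12.3, 7.13, 5.95 and 5.33 in Sertoli cells, against 4.64, 1.34, 1.73 and 1.49. All 4 were therefore Sertoli-only calls, and the extended bait also had 4 bins over Peg3, scoring 12.5 and 4.18 at the highest.

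Farther away, both Zim1 and the Peg3 and Usp29 promoter reached 1 stretch inside Usp29. Zim1-201 scored 13.1 in Sertoli and 8.42 in pre-granulosa cells with chr7:6919699-6924703 at 225.8 kb. The bin before it scored 6.97 and 13.004, and the bin after it 11.1 and 0.752. The Usp29-204 bait (chr7:6729984-6731244) holds the RefSeq starts of both Peg3 and Usp29, and its 3 listed contacts all fell in this stretch. They scored 10.01 and 4.99, 6.29 and 2.66, and 4.27 and 6.57. Touching bins of 1 bait thus ranked the cell types in opposite orders. The farthest original Zim1 contact was a Sertoli call at 338.1 kb on the other side (9.63 and 3.85), and the farthest extended one was a pre-granulosa call with Zfp954-201 at 427.8 kb (0 and 5.68).

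Mest, an imprinted gene of a hydrolase-like protein, had 1 original bait with 4 listed contacts and 3 extended baits with 26. Mest-209 scored 9.92 in Sertoli and 2.02 in pre-granulosa cells with a bin 4.09 kb from Ssmem1 at 204.9 kb, and 5.45 and 7.29 at 5.27 kb. All 29 extended contacts of the cluster lay at lower coordinates, between Klhdc10 and Mest. The extended bin of Mest-209 and Mest-207 alone had 14 Sertoli and 6 pre-granulosa calls. Mest-206 and the Cpa5 promoter scored 13.8 and 20.8, and 2.61 and 8.64 in reverse. Mest-211, whose bin holds the start of the DMR promoter shown above, scored 15.5 and 9.99 with Cpa5, 17.1 and 7.83 with Ssmem1-203 and 18.02 and 4.86 with Klhdc10 at 335.0 kb. In reverse Klhdc10 kept the order (5.34 and 1.09), and Ssmem1-203 turned it (5.10 and 6.85). Mest-206 and Mest-211 therefore gave opposite orders of the cell types at the Cpa5 promoter. Copg2, a coatomer subunit gene on the far side of Mest, had 3 extended contacts, each called in 1 cell type. It contacted Cep41 (0 and 8.76, and 0 and 6.88 in reverse) and Ssmem1-203 (0.245 and 6.83) in pre-granulosa cells only, and the bin of Mest-209 and Mest-207 in Sertoli cells only (5.04 and 0.907).

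The Inpp5f cluster was also one-sided. Inpp5f encodes a phosphoinositide phosphatase, and one of its transcripts starts at an imprinted promoter inside the gene. The upstream bait Inpp5f-201 had a single listed contact in each table. That of the original bait was called in pre-granulosa cells (1.30 and 5.54), and that of the extended bait, with the internal promoters, in Sertoli cells (7.60 and 3.85). The internal baits Inpp5f-208 and Inpp5f-203, which are neighbouring fragments at chr7:128687206-128689304, had 18 listed contacts, all at lower coordinates, with 16 Sertoli and 7 pre-granulosa calls. Their strongest contact was a bin 11.6 kb from Tial1, an RNA-binding protein gene. Inpp5f-203 scored 14.3 in Sertoli and 15.2 in pre-granulosa cells there, and Inpp5f-208 scored 6.84 and 5.02. Inside the gene, 63.4 kb away, Inpp5f-203 scored 1.05 and 8.34. The extended bin had 23 Sertoli and 14 pre-granulosa calls among 28, and its contacts with the promoters of Tial1 (8.67 and 10.7) and of the co-chaperone gene Bag3 (6.30 and 6.41) were called in both cell types and from both ends. In reverse these pairs scored 19.9 and 19.1 and 17.1 and 13.2, so the order turned. The extended bin also turned it at the strongest original contact, with 18.1 and 13.8.

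**Figure D3:**
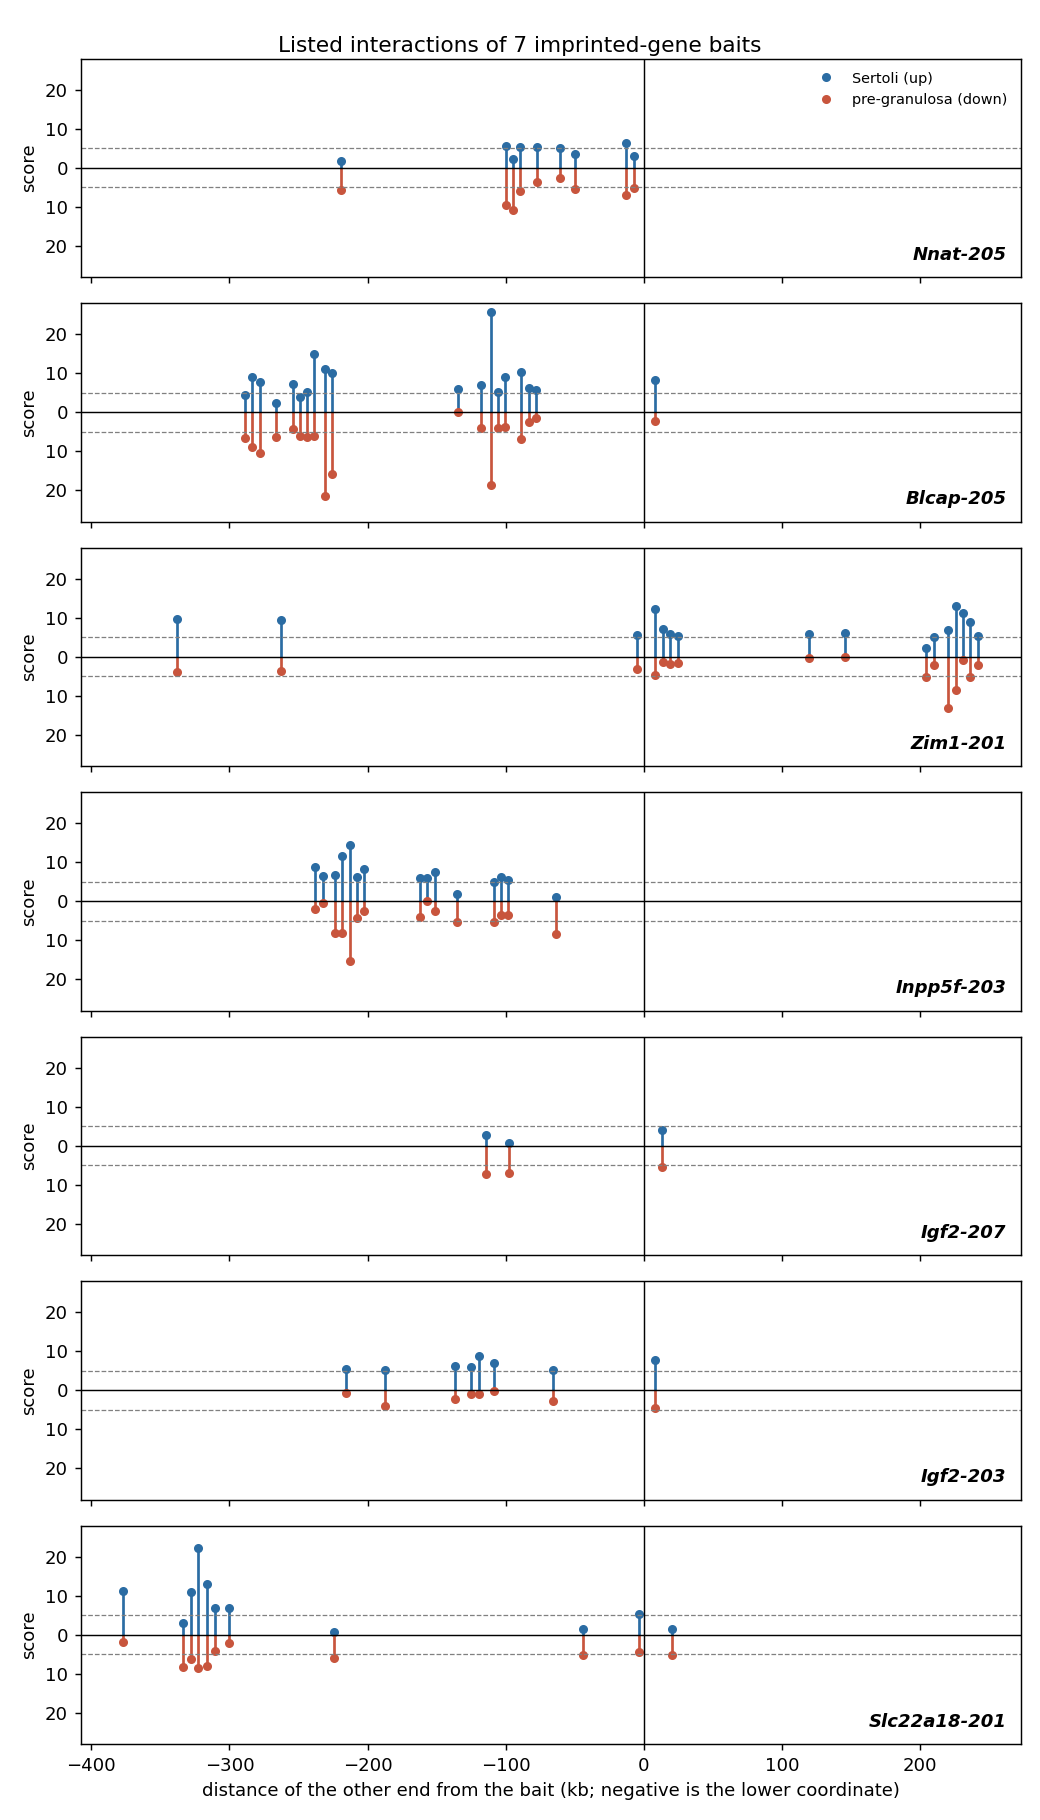
For 7 original baits, each stem is a listed contact placed by its distance from the bait in kb (negative is the lower coordinate), with the Sertoli score drawn upwards and the pre-granulosa score downwards, and dashed lines at 5. Contacts of Blcap-205, Nnat-205 and Inpp5f-203 lie almost wholly on 1 side, Zim1-201 has separate groups near the bait and beyond 200 kb, and Igf2-203 and Igf2-207 carry calls of opposite cell types.

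The Igf2 cluster pairs growth genes with a noncoding RNA. Igf2 encodes insulin-like growth factor 2 and is expressed from the paternal copy, and the insulin gene Ins2 is counted here with it. H19 is a maternally expressed noncoding RNA. The original baits of this cluster gave 12 Sertoli calls, 3 pre-granulosa calls and none shared, where 21.5% of all listed contacts were shared. Its extended baits shared 15 of 47, where 34.3% of all were.

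With original baits, 2 alternative Igf2 promoters carried opposite calls. Igf2-203 (chr7:142666445-142667556) had 8 listed contacts, all called in Sertoli cells only, with pre-granulosa scores from 0.0304 to 4.41. Igf2-207 (chr7:142661526-142661960) had 3, all called in pre-granulosa cells only. A bin in the noncoding gene Nctc1 (chr7:142544999-142550706) scored 8.91 in Sertoli and 0.990 in pre-granulosa cells with Igf2-203, and 2.78 and 7.30 with Igf2-207. The bin at chr7:142671897-142677654, between Igf2 and Ins2, scored 7.65 and 4.41 with Igf2-203 and 4.10 and 5.37 with Igf2-207. In the extended table the bin of Igf2-207 and 3 other Igf2 starts had 14 Sertoli and 16 pre-granulosa calls, and the 2 bins over Nctc1 that overlap the one above scored 5.11 and 8.06 and 3.87 and 6.38. Igf2-203 there had 3 Sertoli calls and 1 pre-granulosa call. The bin between Igf2 and Ins2 did not keep the order: its extended counterpart scored 6.80 and 4.91 with the bin of Igf2-207, and 5.72 and 2.65 with Igf2-203. Another original bait, Igf2-209, had 1 contact, called in Sertoli cells (7.09 and 2.38).

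No Igf2 or Ins2 bait was listed with a bin that overlaps H19, among 12 and 3 original contacts and 30 and 17 extended contacts; a pair that is not listed has no score here. The nearest bin of an original Igf2 bait ended 8.71 kb from H19 (Igf2-207, 0.763 and 6.90), and that of an extended bait 5.78 kb from it (2.59 and 10.3). Baits beyond H19 did contact it. The bin chr7:142577452-142582533, which overlaps H19, scored 4.20 in Sertoli and 7.09 in pre-granulosa cells with Syt8-203, 2.39 and 8.45 with Tnni2-206 and 6.39 and 5.57 with Mrpl23-201. With extended baits the overlapping bin scored 5.39 and 8.17 with the bin of Syt8-203, 4.94 and 7.87 with that of Tnni2-206 and 5.35 and 7.09 with Mrpl23-201. Mrpl23 thus changed its order between the tables, and the others kept theirs.

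Longer contacts joined Igf2 and Ins2 to the muscle and synaptotagmin genes past H19. The extended bin of Ins2-203 and Ins2-205 scored 26.0 in Sertoli and 9.72 in pre-granulosa cells with the Syt8 and Tnni2 promoters at 242.8 kb, and 25.1 and 10.3 in reverse. Igf2 scored 9.48 and 14.5 with the same bin at 221.0 kb, and 9.13 and 16.3 in reverse. Igf2 and Ins2 themselves scored 6.37 and 2.28 at 21.8 kb, and 6.49 and 2.74 in reverse. Igf2 and the Mrpl23 promoter scored 11.0 and 13.48, and 17.6 and 20.6 in reverse. The Igf2 bin and the Ins2 bin thus ranked the cell types differently at 1 distal bin, and each pair kept its order in reverse, while Igf2-203 scored 7.05 and 3.14 with that bin.

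The Kcnq1 cluster had the most members with a bait and the most calls. Kcnq1 encodes a potassium channel, and the noncoding RNA Kcnq1ot1 starts at the DMR inside it and silences the neighbours on the paternal copy. Those neighbours include the growth-restraining genes Cdkn1c and Phlda2, the transporter gene Slc22a18 and the trophoblast regulator Ascl2. Original baits gave 45 Sertoli, 35 pre-granulosa and 19 shared calls among 61.

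Slc22a18 reached across the domain into Kcnq1. Slc22a18-201 (chr7:143473664-143474329) scored 22.2 in Sertoli and 8.50 in pre-granulosa cells with chr7:143148527-143154378 inside Kcnq1, at 322.5 kb. The touching bins on each side scored 11.0 and 6.20, and 13.03 and 7.89. One bin farther out, at 333.3 kb, the scores were 3.17 and 8.10. All 3 central bins were called in both cell types. A single bin inside Kcnq1ot1 was listed, at 224.0 kb, with 0.636 in Sertoli and 5.98 in pre-granulosa cells. The listed Slc22a18 bin nearest to Cdkn1c, 6.496 kb from it, lay only 3.74 kb from the Slc22a18-201 bait itself and scored 5.23 and 4.37.

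Several members contacted a bin 0.033 kb from Trpm5, a cation channel gene, and about 10 kb before the Kcnq1 promoters. That bin, chr7:143094675-143099765, scored 9.06 in Sertoli and 8.14 in pre-granulosa cells with Kcnq1-204, 6.19 and 3.48 with Kcnq1-203 and 6.22 and 1.74 with Kcnq1-207, which are 3 neighbouring fragments. Slc22a18-201 scored 11.2 and 1.81 with it, Slc22a18-202 scored 8.55 and 0, and Tspan32-202 scored 0.319 and 6.52. Sertoli scores were higher for 5 of these 6 baits, and the tetraspanin gene Tspan32 was the exception. With the extended bait Slc22a18-201 turned at the overlapping bin, to 9.18 and 14.5, with 14.0 and 14.6 in reverse.

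Extended baits showed promoters of this cluster in contact with each other. Phlda2 and Kcnq1 scored 12.02 in Sertoli and 11.1 in pre-granulosa cells at 398.1 kb, the longest called contact of the cluster in both cell types. Slc22a18-201 and Kcnq1 scored 11.2 and 9.58, and 7.37 and 6.28 in reverse, at 365.5 kb. At the other end of the cluster Cd81-204, a tetraspanin promoter, and Tssc4 scored 31.2 and 18.9 at 11.4 kb, and 18.9 and 12.2 in reverse. Tspan32-202 and Tssc4 scored 26.1 and 15.4 at 60.5 kb, and 15.2 and 8.37 in reverse. Cd81-201, the bin before Cd81-204, scored 14.8 and 21.2 with Tssc4, and 3.69 and 9.55 in reverse. Ascl2 and Tssc4 scored 9.57 and 2.94. Seen from the first-named promoter, these pairs were called in both cell types, except that of Ascl2, which was called in Sertoli cells only.

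Further pairs linked Tspan32, Cd81, Tssc4 and Kcnq1. Tspan32-201 scored 16.1 and 4.48 with Tssc4 (6.91 and 1.87 in reverse), 7.45 and 5.40 with Cd81-204 and 5.36 and 2.37 with Kcnq1. Tspan32-202 scored 8.66 and 4.99 with Cd81-204 (7.10 and 3.42 in reverse) and 9.502 and 5.31 with Kcnq1. Cd81-201 scored 7.49 and 2.47 with Tspan32-202 and 7.04 and 4.10 with Kcnq1. All of these scores were the higher in Sertoli cells. Phlda2 and Slc22a18-201 scored 9.35 and 2.93 at 32.6 kb. The promoters of Kcnq1 gave scores near the threshold with Tssc4 (4.94 and 5.11) and Slc22a18-202 (5.47 and 5.76).

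**Figure D4:**
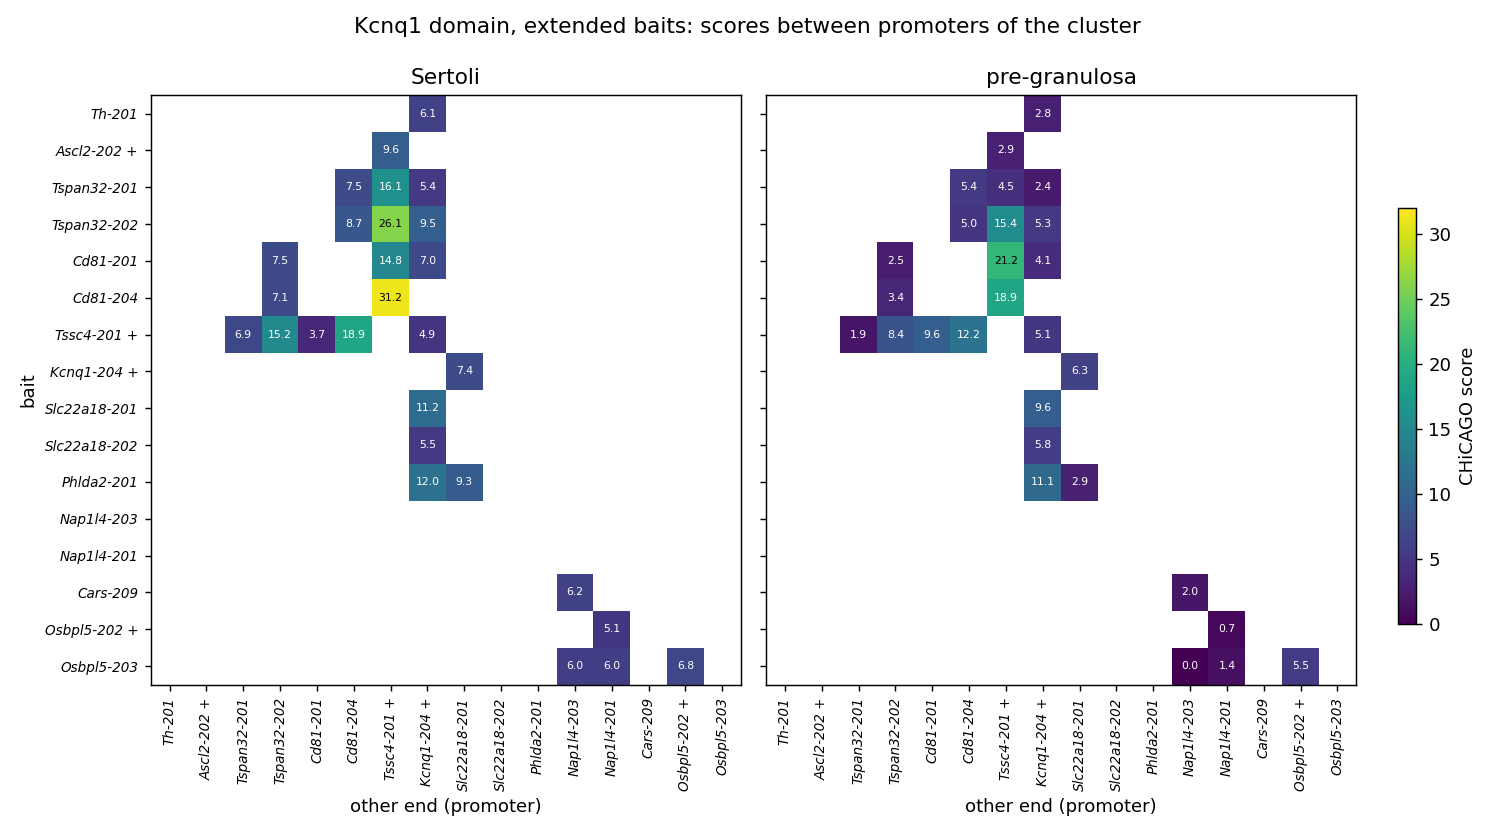
Rows are extended baits of the Kcnq1 cluster and columns are the promoter bins of the cluster at the other end, both in genome order, with the CHiCAGO score printed and coloured for Sertoli cells (left) and pre-granulosa cells (right); a plus sign marks a bin that holds several starts and white marks pairs that are not listed. Scores concentrate in 1 block from Tspan32 to Kcnq1, a second joins Kcnq1 to Slc22a18 and Phlda2, and the pairs of Nap1l4 with Cars and Osbpl5 stay under 5 in pre-granulosa cells.

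Dhcr7, the gene of the last enzyme of cholesterol synthesis, contacted 2 bins about 73 and 78 kb away from each of 3 neighbouring fragments; Dhcr7-202 scored 6.98 in Sertoli and 8.43 in pre-granulosa cells and 8.80 and 8.69, and the extended bin scored 25.7 and 29.2 at 74.5 kb, the highest pre-granulosa score of any imprinted gene in that table. Osbpl5, an oxysterol-binding protein gene, scored 7.39 and 10.3 with a bin inside its own gene at 36.6 kb, and 5.70 and 4.69 with the overlapping extended bin. Pairs between the nucleosome assembly gene Nap1l4 or the cysteinyl-tRNA synthetase gene Cars and Osbpl5 were Sertoli-only calls. Nap1l4-201 scored 6.36 and 0.580 at 188.4 kb, and Cars-201 5.91 and 0.374 at 94.6 kb. In the extended table Osbpl5-203 scored 5.98 and 0 with Nap1l4-203 and 5.96 and 1.37 with Nap1l4-201. The bin of Osbpl5-202 scored 5.11 and 0.722 with Nap1l4-201, and Cars-209 scored 6.15 and 1.97 with Nap1l4-203. Tyrosine hydroxylase (Th-201) had 1 original contact, called in pre-granulosa cells (0.355 and 5.45), and 2 extended contacts, called in Sertoli cells, with promoters of Trpm5 (5.90 and 2.84) and Kcnq1 (6.13 and 2.82).

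Asb4, a maternally expressed gene of the Peg10 cluster that encodes a subunit of a ubiquitin ligase, contacted Ppp1r9a, the gene of the actin-binding protein neurabin. Besides the bin scoring 16.3 in Sertoli cells and listed at 0 in pre-granulosa cells, which had no other bait, Asb4-201 scored 8.66 and 2.36 at 247.6 kb and 6.33 and 5.07 at 274.0 kb. Of the 2 bins touching the first, 1 was not listed and the other scored 7.47 and 3.64. At 821.9 kb the same bait scored 1.01 and 5.81, the longest call of any imprinted gene. The 2 Asb4 promoters scored 14.1 and 15.1 with each other in the extended table. Ppp1r9a-205 had 1 contact, inside its gene (0.735 and 5.21). Peg10 and Sgce, the paternally expressed pair that names the cluster, had no listed bait.

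Few contacts were listed for the Gnas cluster, but some of them were long. Gnas, the gene of the stimulatory G protein alpha subunit, has several promoters of different imprints. The bin of Gnas-210, Gnas-214 and Gnas-215 holds its RefSeq start at chr2:174284320. Those at 174327749, 174327768 and 174330006 lay in no listed bait. The extended bin of Gnas-210, Gnas-214 and Gnas-215 scored 32.6 in Sertoli and 1.70 in pre-granulosa cells with the Ankrd60 promoter at 708.3 kb, the highest Sertoli score of any imprinted gene in that table, and 23.0 and 0.229 in reverse. Gnas-204 scored 18.7 and 7.40 with the same promoter, and 7.53 and 1.78 in reverse. The bin of Gnas-210 scored 18.2 and 6.89 with Stx16 at 208.8 kb. Sertoli scores were higher in each of these promoter pairs. A further contact of the Gnas-210 bin, at 471.4 kb and 28.7 kb from the nearest coding gene, Vapb, was listed at 0 in Sertoli cells and scored 6.31 in pre-granulosa cells. The original table had only the Gnas-225 bait for this gene, with 3 Sertoli calls between 13.6 and 79.2 kb and 1 pre-granulosa call.

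Within the Snrpn cluster, whose paternally expressed genes are lost in Prader-Willi syndrome, the pre-granulosa score was the higher in 6 of 7 original and 4 of 6 extended contacts. Over all baits the Sertoli score was the higher in 71.6% of listed original and 65.0% of listed extended contacts. Ndn-201, a promoter of the MAGE family gene necdin, scored 4.04 in Sertoli and 8.39 in pre-granulosa cells at 8.54 kb, 5.18 and 6.80 at 7.35 kb and 1.14 and 5.12 at 30.6 kb. Snrpn-201, the DMR promoter shown above, had 1 contact at 16.3 kb (1.87 and 5.20). The upstream Snrpn-202 scored 5.78 and 0.710 at 13.8 kb, 1.09 and 5.49 at 24.0 kb and 4.05 and 7.04 at 8.85 kb. Magel2 and Ndn, neighbouring MAGE genes, scored 10.2 and 4.41 with each other in the extended table. No original contact of the cluster spanned more than 30.6 kb.

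Mthfs, a folate enzyme gene near Rasgrf1, contacted, from 2 of its fragments, a single bin 16.9 kb from Tmed3. Mthfs-203 scored 13.9 in Sertoli and 4.41 in pre-granulosa cells at 468.5 kb, the longest Sertoli call of the original table among these genes, and Mthfs-210 scored 13.3 and 0. The 2 fragments, a few kb apart, therefore had like Sertoli scores and pre-granulosa scores of 4.41 and 0. Rasgrf1 had no listed bait, and the bin lay 227.2 kb short of it. The single contact of Zdbf2-202, called in both, scored 6.32 and 5.49. Ampd3-204, a promoter of AMP deaminase, scored 6.48 and 3.53 at 6.36 kb and 5.09 and 1.70 at 30.9 kb. The extended bin that holds this start scored 7.21 and 9.05 at 10.8 kb, and that of Ampd3-205 contacted the Mrvi1 promoter at 206.6 kb in pre-granulosa cells only (1.30 and 8.90, and 0 and 5.90 in reverse). The Ampd3 baits thus carried calls of either cell type in the extended table.

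Median contact distances of imprinted genes lay above those over all baits, and so did those of the genes flanking the clusters. The median distance of called contacts was 103.3 kb in Sertoli cells (95% interval from order statistics 78.5 to 136.8), against 42.6 kb over all baits. In pre-granulosa cells it was 77.8 kb (49.2 to 99.4), against 25.1 kb. For flanking genes outside the list the medians were 86.2 and 85.0 kb. At 100 kb or more lay 51.9% of the Sertoli calls of imprinted genes, against 25.3% over all baits, and 37.6% of their pre-granulosa calls, against 17.97%. Much of this came from few baits. Blcap-205, Zim1-201, Inpp5f-203 and Slc22a18-201 held 61 of the 176 listed contacts, and without these 4 the medians were 67.1 and 31.5 kb. At a score of at least 7 the medians of the imprinted genes were 194.3 and 94.3 kb, and at equal numbers of calls 200.8 and 77.8 kb. With 1 value per bait, the median over baits of each bait's median was 73.5 kb over 39 baits with a Sertoli call and 52.8 kb over 36 with a pre-granulosa call, against 35.7 and 21.8 kb over all baits. In the extended table the medians of the imprinted genes were 106.4 and 107.7 kb, against 47.9 and 37.6 kb over all baits and 71.8 and 65.0 kb for the flanking genes.

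**Figure D5:**
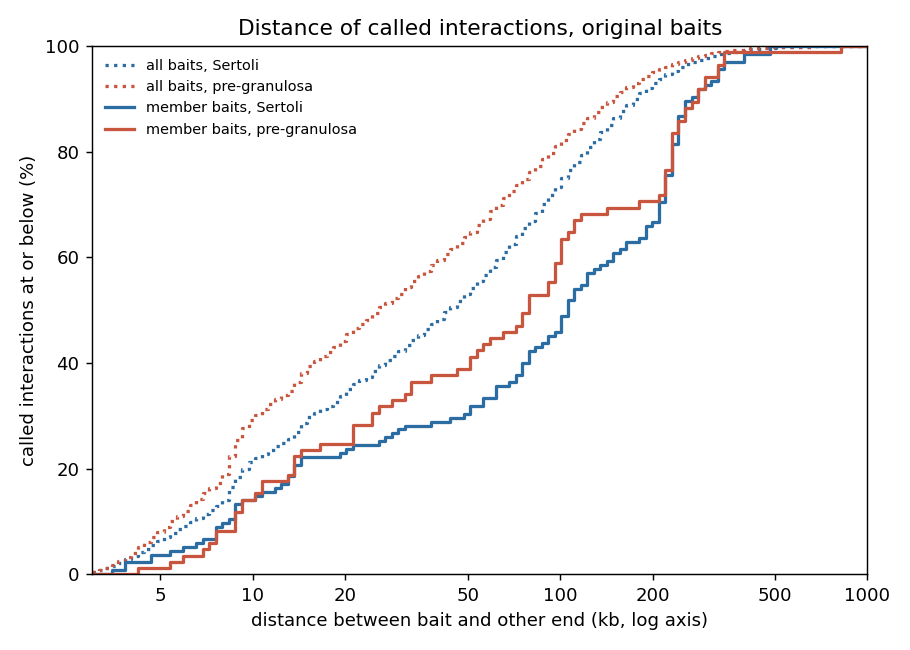
Curves give the percentage of called contacts at or below each distance between bait and other end (kb, log axis) for original baits of imprinted genes (solid) and all baits (dotted) in Sertoli and pre-granulosa cells. The solid curves lie to the right of the dotted ones and climb steeply between 200 and 250 kb, where contacts of Blcap-205, Zim1-201 and Inpp5f-203 fall.

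Bins were often contacted by more than 1 gene. The imprinted baits of the original table met 135 distinct bins, of which 42 (31.1%) were contacted by 2 or more genes, against 22.3% of all contacted bins. Of the 42, 32 were also contacted by a gene outside the list and 15 by 2 or more members, such as the Src bins (Blcap and Nnat), the Usp29 stretch (Zim1 and Usp29) and the bin beside Trpm5 (Kcnq1, Slc22a18 and Tspan32). With extended baits 100 of 199 bins (50.3%) were contacted by 2 or more genes, against 37.5% of all. Imprinted baits took part there in 123 pairs of 2 bait bins, 26 of them between different members, and 75 were listed in both directions. The call was the same from both ends for 62 of the 75 in Sertoli cells and for 69 in pre-granulosa cells.

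Calls were also counted by textbook parent of expression. Whether each label holds in these fetal gonad cells could not be checked, as there was no RNA and the parental copies were not told apart. Original baits of paternally expressed genes (10 of 21 with a bait) gave 43 Sertoli, 28 pre-granulosa and 11 shared calls, a ratio of 1.54 between the cell types. Maternally expressed genes (15 of 26) gave 64, 42 and 23, a ratio of 1.52. Over all baits the ratio was 1.89, above both. With extended baits the ratios were 1.13 and 1.30, against 1.39 over all baits. Members in neither list (5 of 9) gave 28, 15 and 10. Shared calls were 25.6% of the Sertoli calls of paternally expressed genes (Wilson interval 14.9 to 40.2%) and 35.9% for maternally expressed genes (25.3 to 48.2%), so the intervals overlap widely. Over all baits it was 27.1%. The median Sertoli call of paternally expressed genes lay at 136.8 kb and that of maternally expressed genes at 58.0 kb, while in pre-granulosa cells the medians were 60.5 and 61.2 kb. Members in neither list had Sertoli and pre-granulosa medians of 108.4 and 230.7 kb, and all baits 42.6 and 25.1 kb. With extended baits the medians of paternally and maternally expressed genes were 157.8 and 55.4 kb in Sertoli cells and 125.3 and 62.1 kb in pre-granulosa cells. There members in neither list had 103.5 and 228.3 kb, and all baits 47.9 and 37.6 kb. The distances of paternally and maternally expressed genes come from few baits, 16 and 23 in the original table, and their difference was not tested. Inpp5f alone gave 16 of the 43 Sertoli calls of paternally expressed genes in that table, at a median of 204.9 kb. Genes that flank the clusters and are not members (25 of 69) gave 109, 77 and 36, with 33.0% of the Sertoli calls shared.

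The remaining 19 genes of the list had no listed bait of their name in either table. They include H19, Kcnq1ot1, Cdkn1c, Peg3, Peg10, Sgce, Ube3a and Rasgrf1, and for some of them contacts were seen from other baits. The start of Peg3 lies in the Usp29-204 bait described above, and that of Snurf in the Snrpn-201 bait. A bin over Nespas, the antisense transcript at Gnas, scored 7.90 in Sertoli and 0 in pre-granulosa cells with the original Ankrd60-202 bait. Klf14, a transcription factor gene near Mest, was contacted by Klhdc10-201 at 553.2 kb (7.43 and 3.27) and 558.6 kb (0 and 7.29). The 2 touching bins over Klf14 were thus called in opposite cell types.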

How the data were processed

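Capture Hi-C of 3 Sertoli and 2 pre-granulosa libraries was used as deposited. The deposited values are CHiCAGO scores, 1 column per cell type, with coordinates on mm10 per the submitters' processing notes. Per the names of the deposited tables, other ends are bins of about 5 kb and rows pass at a score of 5, and every row was checked to reach it in at least 1 cell type. The columns, headed Sertolli and Granulosa, were matched to the cell types by the labels. Read depth, aligner, CHiCAGO version and the way libraries were combined are not given in the sources used here. Without replicates or counts, the choice fixed for this unit is description: counts of calls, scores and distances, with 95% Wilson or order-statistic intervals that cover counting error only. Bait names were split at commas and their transcript numbers dropped. The counting code was tested on simulated data with known calls. Genes in bins and promoter windows came from RefSeq (GRCm38, the same assembly as mm10), and sequences were cut to upstream bases.

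Named contacts were chosen by rule for each cluster: the highest score in each cell type, the largest difference of asinh scores in each direction, the longest call in each cell type, and contacts with another member's bait. Bins contacted by 2 or more genes were also named. Contacts outside this rule, such as those of touching bins, were chosen after their values were seen. The members and lists were chosen with earlier results of these data known. Alternatives were extended baits, scores of at least 7 or 10, distances of at least 50 kb, equal numbers of calls and merged touching bins. Leaving out the 4 baits with the most listed contacts was chosen after seeing the data. Analyses used Python 3.11.15, pandas 2.3.3, numpy 2.4.6, scipy 1.17.1 and matplotlib 3.10.9.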

Additional observations from a re-analysis of the deposited data

Results flagged for a closer look

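Contacts with other chromosomes were not part of the comparisons above. Among them, the Asb4-201 bait was listed with a bin of chromosome 1 (chr1:40913549-40918615). Its score was 13.51 in pre-granulosa and 1.04 in Sertoli cells with the original bait. With the extended bait it was 14.2 and 0. This was the only contact of an imprinted gene with another chromosome in either table, out of 290 such rows in the original and 253 in the extended table, and no other bait was listed with that bin. The bait is the one with the largest difference towards Sertoli cells within its own chromosome. With 1 pooled column per cell type the difference was not tested.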

How the results depend on the processing

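With extended baits the calls were 212 in Sertoli and 177 in pre-granulosa cells, 103 of them shared (48.6% of the Sertoli calls), and the pre-granulosa median distance was 107.7 kb. At a score of at least 7 the counts were 52, 31 and 15, with a Sertoli median of 194.3 kb. At a score of at least 10 they were 21, 8 and 4 (19.05% of the Sertoli calls shared), with medians of 225.8 and 216.6 kb. At 50 kb or more, 50 pre-granulosa and 27 shared calls were left, with medians of 188.4 and 190.1 kb. Equal numbers of calls gave 68 Sertoli and 26 shared calls and a Sertoli median of 200.8 kb. Without the 4 baits with the most listed contacts there were 84 Sertoli and 26 shared calls, and medians of 67.1 and 31.5 kb. Merging touching bins (97 Sertoli, 64 pre-granulosa and 32 shared contacts) moved none of these summaries by more than 1.5 times, and 3 cluster counts by more. The causes were not tested. Of the 176 original contacts, 135 had an overlapping bin listed for the extended bait, and 94 of these kept their class. No paired analysis was possible because all libraries of a cell type stand behind a single column, and for the same reason no library could be left out in turn. Depth is unknown, so pairs under a score of 5 in both cell types cannot be described, and scores from fragments of different length may differ in precision.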
